A study of Mus musculus with 17 samples.

Results

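Interferon-stimulated genes are genes whose transcription rises when a cell senses interferon, and the interferon GTPases are the large GTP-hydrolysing proteins among their products. The set described here held 44 genes listed by name, and a gene was a member where its symbol appeared as a gene name in the table of a cell population. All 44 were found in the tumor cell table, among 16410 genes. The TRM table (13545 genes) and the MDM table (13407 genes) each held 43 of them, since Ifi44 had no entry used there. The list was not chosen from the values of any contrast, although it was drawn up with earlier results of these data known. KL mice, which carry an inducible tumor-forming allele and Lkb1fl/fl, were compared with KLG4 mice, which carry the same alleles and Gpx4m/m. The Gpx4m allele carries rox-flanked exons and a DreERT2 recombinase behind a STOP cassette and a CAG promoter. Both genotypes received Ad-Cre into the nose, which starts tumors and removes Lkb1 in the infected lung cells, and then tamoxifen, and lungs with tumors were taken 10 weeks after Ad-Cre. The tamoxifen step excises Gpx4 in cells that had met Cre, so TRMs and MDMs of KLG4 mice are not themselves the intended target. Each population, namely tumor cells, TRMs and MDMs, had 2 KL and 2 KLG4 libraries, and the last 2 names are abbreviations that the labels do not spell out.

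In outline, type I and type III interferons signal through receptors coupled to JAK1 and TYK2 and assemble a complex that holds STAT2 and IRF9 and binds the interferon-stimulated response element (ISRE). Interferon gamma signals through JAK1 and JAK2 to the gamma-activated site (GAS), and IRF1 is among the early genes so induced. The products restrict viruses and intracellular microbes by trapping foreign RNA, degrading it, blocking budding or breaking open the compartments in which microbes live. In the lung such genes are read in epithelium, macrophages and neutrophils alike, at levels that differ between these cell types.

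Expression is given as RPKM, reads scaled to the length of the gene in kilobases and to the counted megareads (M) of the library, and differences are log2 fold changes of KLG4 over KL on the log2(RPKM + 0.1) scale, tested with limma over every gene of a table. A gene was tested where at least 2 of the 4 libraries reached 1 RPKM, and it was called where the Benjamini-Hochberg adjusted p was under 0.05. The study describes the tumor cell libraries of a group as coming from separate mice, which the labels do not say, and no source used here says it of TRMs and MDMs. Where libraries of a group share an animal, p-values measure only the spread between these libraries, which may be technical. Depth ranged from 9.14 to 36.6 M counted reads.

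Before the members are described, the libraries have to be. The targeted gene Gpx4 stood at 56.4 and 61.9 RPKM in KLG4 tumor cells against 94.95 and 76.8 in KL, at 53.8 and 56.99 against 89.8 and 88.2 in TRMs, and at 93.6 and 97.7 against 44.9 and 71.3 in MDMs, each counted over the whole gene. Stk11, which encodes Lkb1 and is floxed in both genotypes, was higher in KLG4 in every population, with 61.6 and 61.6 RPKM against 25.9 and 25.8 in tumor cells, 42.5 and 40.005 against 21.5 and 23.3 in TRMs and 203 and 177 against 62.3 and 72.6 in MDMs. The study describes its tumor cells as CD45-CD31-EpCAM+, whereas its sorting methods write the gate with CD45.2+. In the KLG4 tumor cell libraries the summed RPKM of 5 leukocyte genes was 120.2 and 123, against 9.21 and 15.0 in KL, with Ptprc, which encodes CD45, at 26.7 and 27.4 against 0.834 and 2.06 RPKM. Neutrophil genes summed to 2258 and 2161 against 179 and 272 RPKM, fibroblast genes to 355 and 353 against 10.3 and 15.6, and epithelial genes to 4210 and 4232 against 10503 and 9174. Genes of monocyte-derived macrophages summed to 516 and 517 against 38.5 and 43.2 RPKM, and those of alveolar macrophages to 385 and 395 against 48.01 and 67.9. Most of the former sum was Apoe, at 441 and 446 RPKM in KLG4 against 33.4 and 36.5 in KL. The study reports Apoe as more highly expressed in KLG4 than in KL tumor cells. The cell source of Apoe in these libraries was not tested. The other genes of that list with values were also higher in both KLG4 libraries, such as C1qa at 28.9 and 28.0 against 1.31 and 2.03 RPKM. T cell genes summed to 33.4 and 37.2 against 1.40 and 1.62 RPKM. Jchain, the joining chain of plasma cell antibodies, had 101 and 112 against 0.304 and 0.631, whereas the plasma cell list as a whole summed to 218 and 225 against 217 and 208. None of the 5 leukocyte or 6 neutrophil genes was at 0 in a tumor cell library. Signal of other cell types thus moved with the genotype, and its part in the results for tumor cells was not tested. Since these were bulk samples, more cells of a type and more RNA per cell cannot be told apart here.

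The MDM label was partly at odds with its markers. All 4 MDM libraries carried S100a9, a neutrophil alarmin, at 17917 and 16079 RPKM in KLG4 against 21106 and 9379 in KL, where TRMs had 61.9 to 191. Genes of monocyte-derived macrophages summed to 581 and 451 RPKM in KLG4 and to 451 in KL replicate 1, whereas KL replicate 2 reached 2360, with C1qa, a complement subunit of macrophages, at 24.2 and 24.4 in KLG4 and 15.96 and 92.7 RPKM in KL. Neutrophil genes were lowest in that same KL replicate 2, at 10648 RPKM against 17776 to 23306 in the others. Xist, which silences an X chromosome, had 21.8 and 0.839 RPKM in the KL pair and 19.4 and 19.4 in KLG4, so KL replicate 2 stood apart in this gene too, whereas the tumor cell libraries had 4.38 and 4.17 in KLG4 and 6.18 and 4.55 in KL. The TRM libraries carried alveolar macrophage genes at a summed 8416 to 12788 RPKM, but Xist separated the genotypes there (18.3 and 20.2 against 0.257 and 0.501 RPKM), and reads of mitochondrial genes and of nuclear copies of them made up 2.96% and 5.78% in KLG4 against 31.5% and 22.3% in KL. That share also differed by genotype in the other populations, with 14.8% and 14.7% in KLG4 against 7.39% and 8.27% in KL tumor cells, and 0.923% and 1.33% against 2.76% and 7.31% in MDMs. T cell and NK cell defining genes (Cd3d, Cd3e, Ncr1) had no value used in TRMs or MDMs.

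**Figure D1:**
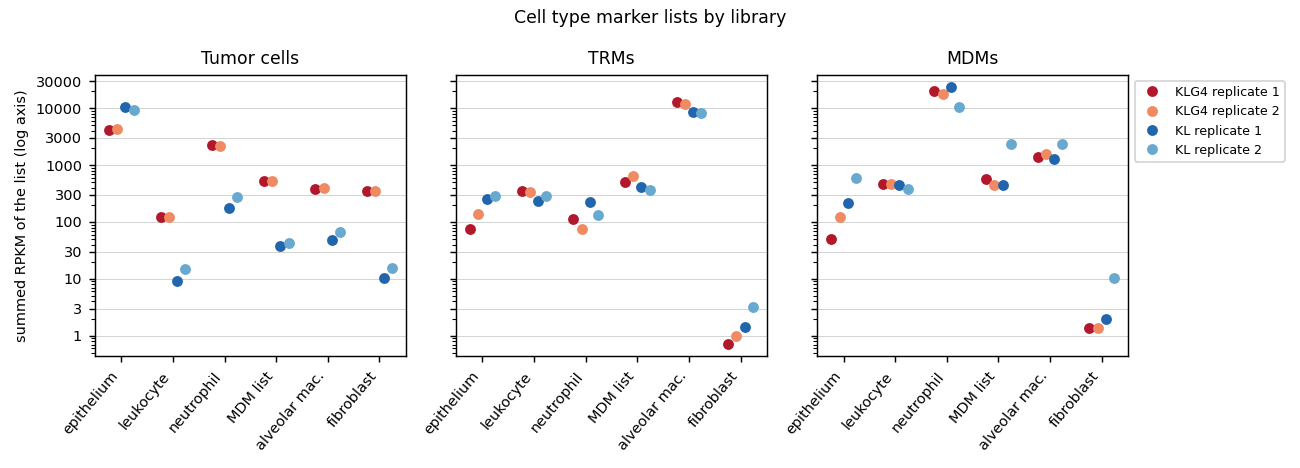
Summed RPKM of 6 cell type marker lists (log axis) in each library of tumor cells, TRMs and MDMs, with the KLG4 libraries in red and orange and the KL libraries in blue. The tumor cell panel shows leukocyte sums of 120.2 and 123 in KLG4 above 9.21 and 15.0 in KL, and the MDM panel shows the KL replicate 2 library apart from the other 3, at 2360 for the macrophage list.

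The promoters of the members were read first, since they carry the sequences through which interferon acts. RefSeq promoter windows (GRCm38.p6), from 250 bases before to 50 bases after the gene start, were matched by symbol for 34 of the 44 members. The ISRE was searched as GAAA followed, after any 2 bases, by GAAA again, on both strands and with overlapping matches allowed, and the GAS as TTC, any 3 bases and GAA, which reads the same on both strands. An ISRE was present in 21 of these 34 promoters (61.8%) against 3.99% of 27025 genes with a window of the same length, and a GAS in 11 of 34 (32.4%) against 9.55%. All 7 GTPase promoters with an entry held an ISRE, whereas 3 of the 4 signalling genes (Irf1, Irf7 and Irf9) did not. The 5 windows that follow are examples with and without each motif, from 4 members called higher in tumor cells and from Irgm1, which was not called there.
Capitals mark the motif, which reads TTTC, any 2 bases and TTTC where the ISRE lies on the other strand. Isg15 (chr4:156200769-156201068, minus strand) had overlapping ISRE matches beginning 78, 72 and 66 bases before the start, Gbp2 (chr3:142620413-142620712, plus strand) had its match at 59 and Rsad2 (chr12:26456403-26456702, minus strand) at 120. Irgm1 (chr11:48871371-48871670, minus strand) held overlapping ISREs at 30 and 24 although the gene was not called in any population, and Irf1 (chr11:53769764-53770063, plus strand) held a GAS at 90 and no ISRE.
Isg15: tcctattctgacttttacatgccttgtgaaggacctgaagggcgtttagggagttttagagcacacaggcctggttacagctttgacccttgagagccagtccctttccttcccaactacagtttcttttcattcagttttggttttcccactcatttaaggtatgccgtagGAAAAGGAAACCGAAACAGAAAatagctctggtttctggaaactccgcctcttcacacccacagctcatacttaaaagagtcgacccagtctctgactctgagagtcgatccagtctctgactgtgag
Gbp2: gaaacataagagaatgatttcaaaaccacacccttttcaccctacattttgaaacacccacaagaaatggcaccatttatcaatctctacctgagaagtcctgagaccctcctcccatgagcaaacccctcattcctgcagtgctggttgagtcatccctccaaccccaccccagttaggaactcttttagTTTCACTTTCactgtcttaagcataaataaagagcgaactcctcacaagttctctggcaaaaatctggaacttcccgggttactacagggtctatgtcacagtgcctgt
Rsad2: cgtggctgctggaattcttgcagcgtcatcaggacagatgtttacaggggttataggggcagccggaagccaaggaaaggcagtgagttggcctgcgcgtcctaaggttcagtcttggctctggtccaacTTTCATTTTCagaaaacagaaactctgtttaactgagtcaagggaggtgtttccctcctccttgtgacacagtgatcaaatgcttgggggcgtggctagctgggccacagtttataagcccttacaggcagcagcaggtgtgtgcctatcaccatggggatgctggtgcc
Irgm1: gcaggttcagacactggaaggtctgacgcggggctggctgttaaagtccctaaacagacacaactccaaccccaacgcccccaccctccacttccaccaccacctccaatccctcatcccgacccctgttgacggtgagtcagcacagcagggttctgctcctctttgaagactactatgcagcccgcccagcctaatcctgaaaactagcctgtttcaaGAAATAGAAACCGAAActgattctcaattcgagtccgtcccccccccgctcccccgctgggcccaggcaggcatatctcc
Irf1: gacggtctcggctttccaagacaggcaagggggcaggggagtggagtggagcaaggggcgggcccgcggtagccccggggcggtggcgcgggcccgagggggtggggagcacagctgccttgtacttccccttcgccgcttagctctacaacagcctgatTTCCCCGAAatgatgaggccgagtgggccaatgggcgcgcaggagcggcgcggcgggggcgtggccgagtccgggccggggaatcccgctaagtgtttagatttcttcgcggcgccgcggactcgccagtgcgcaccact
The motif was found on both sides of the tumor cell calls. Among members with a window, an ISRE was found in 8 of the 12 called higher in KLG4 tumor cells and in 12 of the 20 others that were tested, and a GAS in 3 of 12 and 8 of 20. A match is a description of letters and not evidence of binding.

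The first comparison asked whether loss of Gpx4 in tumor cells went with a change of these genes in the sorted tumor cells. Of the 41 members tested, 16 were higher and 1 was lower in KLG4, where 20.6% of the 13770 genes tested were higher and 19.6% lower (40.3% in all). An unadjusted p under 0.05 was reached by 21 members and by 50.4% of all genes. Their median log2 fold change was 0.64, against -0.09 over all genes tested. Guanylate-binding protein genes, Isg15, the Oasl genes, Rsad2, Trim30a, Slfn5 and Ifi27l2a were called, while the Irgm genes, the RNA sensors and the IFIT family were not. The filter bears on these counts: 7 members (Ifit1, Mx2, Rsad2, Gbp5, Gbp7, Ifi27l2a and Slfn5) reached 1 RPKM in KLG4 libraries only, and 6 of them were called. The KLG4 libraries were close to each other, with a chi-square per gene of 3.28 between its libraries against 28.9 to 132 in the other 5 pairs, and the number of members called higher was 10 when either KLG4 library was left out. The calls lost in that way were those of Irf1, Irf7, Zbp1, Oasl2, Gbp7, Iigp1 and the lower member, Isg20. The KL tumor cell pair had a chi-square per gene of 60.4. A spread as small as that of the KLG4 pair may be technical, and the tumor cell calls rest in part on it. Their p-values thus do not by themselves measure variation between mice. The mitochondrial share, which was higher in KLG4 tumor cells, moved with the calls, and all 16 members called higher were also called after rescaling to reads outside mitochondrial genes. Quantile scaling lowered the median of all genes to -0.25 and that of the members to 0.28, and the share of all calls that were higher in KLG4 was 51.3%, or 38.5% after quantile scaling and 80.0% or 80.5% without a KLG4 library. On the log2(RPKM + 0.1) scale none of the 41 tested members differed by as much as 2-fold between the libraries of a genotype, as 0.661% and 0.668% of all genes did in either direction in KLG4 and 1.02% and 3.63% in KL.

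**Figure D2:**
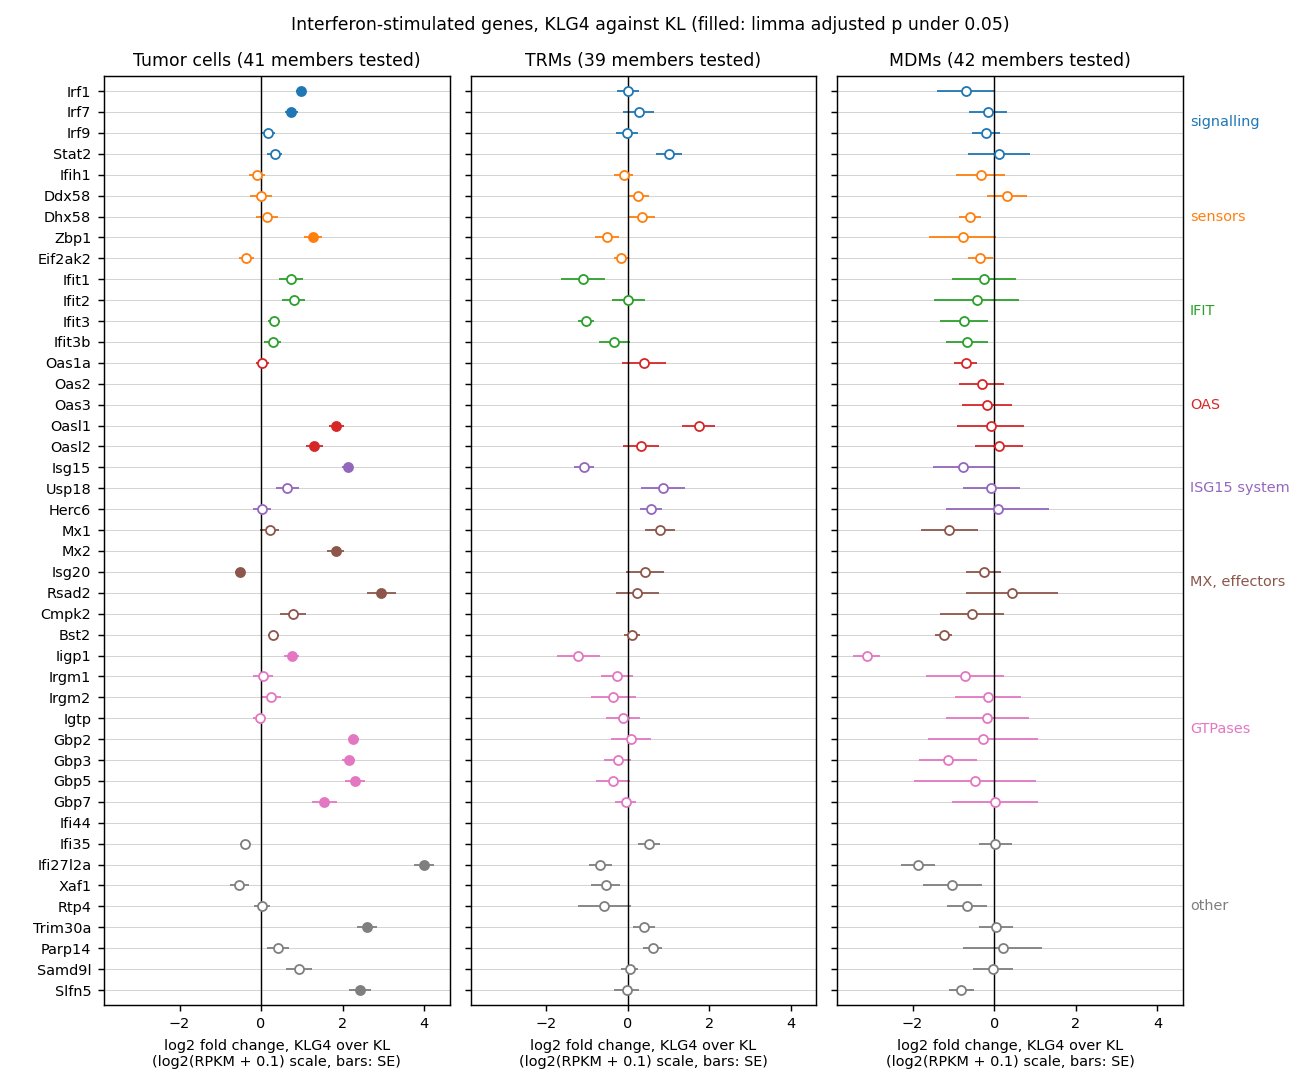
Log2 fold change of KLG4 over KL (x axis, log2(RPKM + 0.1) scale, bars are the limma standard error) for each tested member (y axis, coloured by role) in tumor cells, TRMs and MDMs, with filled points for an adjusted p under 0.05. There are 17 filled points in tumor cells and none in the other panels, and the bars are widest in MDMs.

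Of the 8 interferon GTPase genes, 5 were called higher in tumor cells, where 20.6% of all genes were. Gbp5 and Gbp7 among the 5 passed the filter through the KLG4 libraries alone. The guanylate-binding proteins coat vacuoles and bacteria and feed inflammasomes, and their genes Gbp2, Gbp3, Gbp5 and Gbp7 lie together on chromosome 3 (GRCm38, 142493978 to 142638008). Gbp2 stood at 28.5 and 25.9 RPKM in KLG4 against 5.94 and 5.27 in KL. Gbp3 was at 20.9 and 18.7 against 4.85 and 3.99 RPKM and Gbp5 at 2.48 and 2.05 against 0.420 and 0.339. In each of these genes both KLG4 libraries lay well above both KL libraries. The log2 fold changes were 2.26 (SE 0.14, adjusted p = 0.000392, limma) for Gbp2, 2.14 (SE 0.16) for Gbp3 and 2.30 (SE 0.24) for Gbp5, and Gbp7, part of whose sequence is shared with the overlapping gene Gm43802, rose by 1.54 (SE 0.31, adjusted p = 0.0135). Iigp1, an immunity-related GTPase of the effector type, was at 5.47 and 5.37 RPKM in KLG4 against 3.58 and 2.82 in KL, a log2 fold change of 0.75 (adjusted p = 0.0262) whose call was lost after quantile scaling and without either KLG4 library. The regulatory GTPases Irgm1, Irgm2 and Igtp, which keep the effector GTPases inactive on the cell's own membranes, showed overlapping groups. Igtp was at 4.09 and 4.26 RPKM against 4.46 and 4.07, with a log2 fold change of -0.03 (SE 0.16), and Irgm1 and Irgm2 were at 0.05 and 0.23. Irgm2 and Igtp share exon bases, so their reads could not be fully parted.

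**Figure D3:**
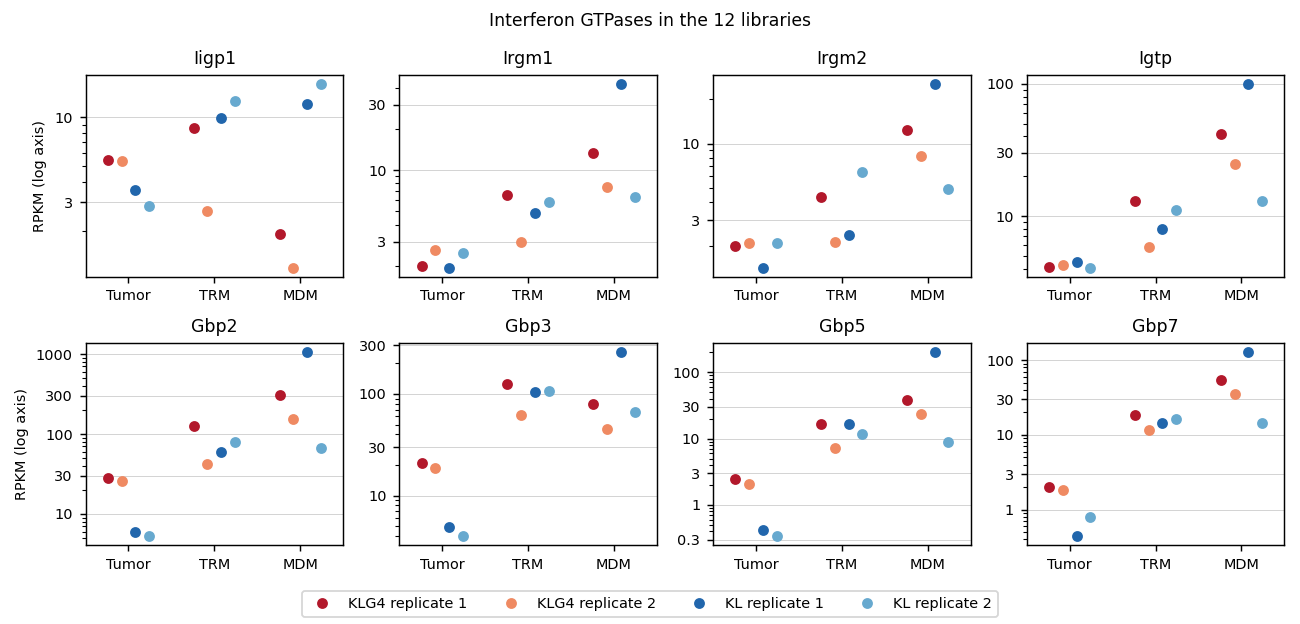
RPKM (log axis) of the 8 interferon GTPase genes in the 12 libraries, KLG4 in red and orange and KL in blue. The 4 Gbp genes in tumor cells lie higher in both KLG4 libraries, for example Gbp2 at 28.5 and 25.9 against 5.94 and 5.27, whereas in MDMs the KL replicate 1 point is the highest for 7 of the 8 genes.

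Within the ISG15 system, Isg15 itself, a ubiquitin-like modifier that is attached to proteins after interferon, rose. It was at 30.6 and 32.8 RPKM in KLG4 against 6.79 and 7.61 in KL, with no overlap, a log2 fold change of 2.12 (SE 0.13, adjusted p = 0.000401, limma). Usp18, the protease that removes ISG15 and dampens the receptor, was at 6.22 and 5.45 against 2.83 and 4.82 RPKM and missed the threshold (0.64, adjusted p = 0.124). Herc6, the mouse ligase that attaches ISG15, did not part the groups (1.44 and 1.43 against 1.26 and 1.58 RPKM, 0.02).

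In the OAS family, named for the 2'-5'-oligoadenylate synthetases that make the second messenger of RNase L, both Oasl genes rose. Oasl1, which lacks that enzyme activity and inhibits Irf7 translation, was at 7.87 and 9.78 RPKM in KLG4 against 2.34 and 2.40 in KL (1.85, SE 0.18, adjusted p = 0.00122). Oasl2 was at 4.67 and 4.01 against 1.54 and 1.86 RPKM (1.31, adjusted p = 0.00552). Oas1a was at 4.12 and 4.47 against 4.27 and 4.14, with overlapping groups and a fold change of 0.03, and it shares near-identical sequence with Oas1g. Oas2 and Oas3 were under the filter, with 0.172 to 1.04 RPKM and 0.178 to 0.551 RPKM over the 4 libraries.

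Of the MX genes and other effectors, Rsad2 (viperin, which makes a chain-terminating nucleotide) showed the largest rise. Its level was 4.37 and 3.98 RPKM in KLG4 against 0.297 and 0.672 in KL, a log2 fold change of 2.95 (SE 0.36, adjusted p = 0.0025, limma). Cmpk2, its neighbour on chromosome 12 and a nucleotide kinase, was at 2.16 and 1.39 against 0.786 and 1.20 RPKM and was not called (0.78, adjusted p = 0.108). Mx2, annotated as a polymorphic pseudogene, was at 2.56 and 2.89 against 0.763 and 0.631 RPKM (1.83, adjusted p = 0.00244, limma). Its values are of RNA and say nothing of a protein. Mx1 was at 3.45 and 5.07 against 3.57 and 3.65, with overlapping groups, and these dynamin-like GTPase genes share near-identical stretches. Rsad2 and Mx2 passed the filter through the KLG4 libraries alone. Bst2 (tetherin, which holds budding virus at the surface) was higher in both KLG4 libraries, at 12.4 and 12.7 against 10.9 and 9.48 RPKM, by less than the test could call (0.30, adjusted p = 0.146). Isg20, an RNA exonuclease, was the exception in direction. It stood at 23.5 and 24.2 RPKM in KLG4 against 36.7 and 32.1 in KL, and fell by 0.52 on the log2 scale (SE 0.13, adjusted p = 0.0249), a call that was lost under trimmed mean scaling, under rescaling to reads outside mitochondrial genes, without the mean-variance trend, in the test on recovered reads and without either KLG4 library.

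The signalling genes split in the same way. Irf1 stood at 43.98 and 44.5 RPKM in KLG4 against 23.5 and 21.5 in KL (0.97, SE 0.12, adjusted p = 0.00246). Irf7, the amplifier of type I interferon production, was at 6.15 and 6.57 against 3.82 and 3.71 RPKM (0.74, adjusted p = 0.0149). Stat2 and Irf9, which belong to the ISRE-binding complex, were not called, with 5.79 and 4.97 against 3.89 and 4.65 RPKM for Stat2 (0.33) and overlapping groups for Irf9 (0.17). The fold changes of both called genes were under 2-fold.

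Nucleic acid sensors did not move as a class. Zbp1, a sensor of Z-form nucleic acid that can start necroptosis, was called, at 2.30 and 2.94 RPKM in KLG4 against 1.07 and 0.984 in KL (1.26, SE 0.22, adjusted p = 0.00882). The RIG-I-like receptor genes Ifih1, Ddx58 and Dhx58 had overlapping groups and log2 fold changes of -0.11, -0.00 and 0.15, with Dhx58 at 0.970 and 1.42 against 0.935 and 1.18 RPKM. Eif2ak2, which encodes the kinase PKR, was at 9.91 and 8.55 against 10.3 and 13.7 RPKM, lower in both KLG4 libraries without a call (-0.36, adjusted p = 0.186). The IFIT family, whose products bind viral RNA ends, had 4 positive fold changes from 0.28 to 0.80 and no call, although Ifit2 was called with a pseudocount of 1, under trimmed mean scaling, in the test on recovered reads and without KL replicate 2, and Ifit1 without KL replicate 2. Ifit3 was at 15.5 and 18.1 against 12.8 and 14.3 RPKM, Ifit2 at 2.48 and 2.13 against 1.02 and 1.60 and Ifit1 at 1.62 and 1.23 against 0.658 and 0.996. For these 3 both KLG4 libraries were the higher ones, and Ifit3 and Ifit3b share most of their sequence.

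Among the remaining members, Ifi27l2a changed most in the whole set. It was at 10.3 and 15.9 RPKM in KLG4 against 0.708 and 0.714 in KL (3.99, SE 0.25, adjusted p = 0.000403, limma). Its KL values rest on 12 and 10 reads. Like Slfn5, it passed the filter through the KLG4 libraries alone and so could be tested only through the group where it was high. Trim30a was at 8.26 and 9.17 against 1.08 and 1.67 RPKM (2.60, adjusted p = 0.0011), and Slfn5 at 3.71 and 3.57 against 0.751 and 0.470 (2.42, adjusted p = 0.00176). Both groups were apart in each of these genes. Parp14, a mono-ADP-ribosyltransferase, was at 4.77 and 5.66 against 3.07 and 4.95 RPKM, and its groups overlapped (0.41). Xaf1, an apoptosis-promoting gene, was at 0.798 and 1.005 against 1.43 and 1.26 RPKM (-0.53, adjusted p = 0.127) and Ifi35 at 14.2 and 13.4 against 17.4 and 18.7 (-0.39, adjusted p = 0.0607). In Xaf1 and Ifi35 both KLG4 libraries were lower, without a call. After quantile scaling, which lowers the median of all genes, both were called, with Xaf1 at -1.62 and Ifi35 at -0.41, and Ifi35 was also called without either KL library. Samd9l (0.93) was not called, but was so under trimmed mean scaling, with the replicate block, in the test on recovered reads and without either KL library. Without a single KL library calls were gained as well by Eif2ak2 and Bst2 (KL replicate 1 left out) and by Usp18 and Parp14 (KL replicate 2 left out). Rtp4 (0.01) was not called, and Ifi44 was under the filter at 0.0925 to 0.281 RPKM. Of the 41 members, 24 had both KLG4 libraries above both KL libraries, where 32.5% of all genes did, and 4 lay below, where 42.2% did.

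**Figure D4:**
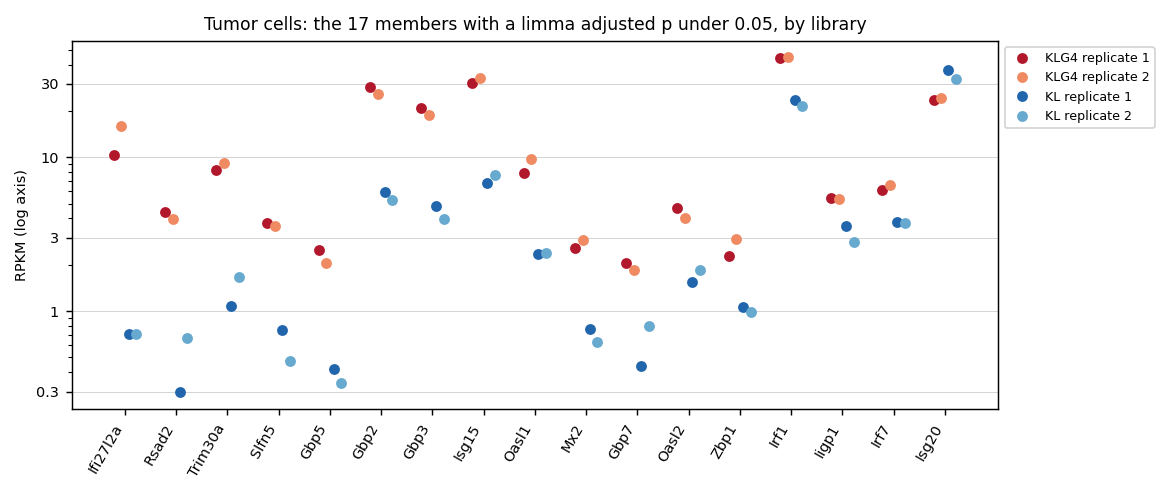
RPKM (log axis) of the 17 members with a limma adjusted p under 0.05 in tumor cells, ordered by log2 fold change from Ifi27l2a (3.99) to Isg20 (-0.52), with a point for each library. In 16 of them both KLG4 libraries (red, orange) lie above both KL libraries (blue), and Isg20 lies the other way. Of the 16, 6 passed the filter through the KLG4 libraries alone.

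The level of the called genes in the myeloid libraries can be set beside these values, although the tables were scaled separately. Of the 16 members called higher, 14 had a mean over the MDM libraries above their mean in the KLG4 tumor cell libraries, the exceptions being Mx2 and Ifi27l2a, and 8 were above it in TRMs. Among the 25 tested members that were not called higher, 24 were above it in MDMs and 13 in TRMs. The same share over all genes was not computed. The leukocyte, neutrophil and macrophage sums named above moved in the same direction as the called members, and their part in these changes was not tested.

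In TRMs none of the 39 members tested was called, where 1.8% of 10990 genes were, 1.36% higher and 0.437% lower. The limma test gave an unadjusted p under 0.05 for 5 members, against 28.3% of all genes, and limma-voom on recovered reads called 2 members lower, where 3.33% of 10658 genes were called lower. The median log2 fold change of the members was 0.01, against 0.38 over all genes tested, and it became -0.40 after quantile scaling, -0.38 after trimmed mean scaling and -0.38 after rescaling to reads outside mitochondrial genes, while the median of all genes went to -0.01, 0.00 and 0.00. Of the calls over all genes, 75.8% were higher in KLG4 as deposited and 38.3%, 26.7% and 25.8% under these scalings. Both KLG4 libraries were above both KL libraries in 9 members, where 53.7% of all genes did so, and below in 9, where 8.95% did. The sensors and the ISG15 system each had members on both of these sides.

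On the higher side in TRMs, Oasl1 was at 3.54 and 2.74 RPKM in KLG4 against 0.652 and 1.13 in KL (1.74, SE 0.41, adjusted p = 0.0766). Stat2 was at 14.3 and 9.42 against 4.62 and 6.99 RPKM (1.02, adjusted p = 0.113) and Parp14 at 10.6 and 8.41 against 5.61 and 6.70 (0.62). Usp18 was at 1.71 and 1.22 against 0.502 and 1.10 RPKM (0.87), and Mx1 at 2.37 and 2.31 against 1.07 and 1.59 (0.79). All 5 stayed positive under the scalings tried, and none passed the test, although Oasl1 and Stat2 did without KL replicate 2. Ifi35 was at 11.9 and 8.67 against 6.02 and 8.11 RPKM (0.53), opposite in direction to tumor cells. Dhx58, a regulator of the RNA sensors, was at 3.95 and 2.57 against 2.38 and 2.54 RPKM (0.36), a sign that turned negative under the quantile, trimmed mean and mitochondrial scalings.

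On the lower side in TRMs, Ifit3 was at 8.54 and 7.41 RPKM in KLG4 against 15.4 and 17.2 in KL (-1.02, SE 0.20, adjusted p = 0.0594). Isg15 was at 10.9 and 7.65 against 17.99 and 20.7 RPKM (-1.07, SE 0.24, adjusted p = 0.0702). Both lay below the KL libraries by about the same amount, and these were the 2 members called lower in the test on recovered reads and under a filter on a mean of at least 5 RPKM. Ifit1 was at 0.675 and 0.769 against 1.05 and 2.55 RPKM (-1.09), where it passed the filter through the KL libraries alone, and Zbp1 was at 7.01 and 4.53 against 8.90 and 7.29 (-0.51). Ifi27l2a was at 6.86 and 6.61 against 13.6 and 8.51 RPKM (-0.67) and Eif2ak2 at 22.8 and 21.1 against 23.8 and 25.01 (-0.15). The KL side was thus the higher one for Isg15, Ifit1, Ifit3, Zbp1 and Ifi27l2a, each of which had been higher on the KLG4 side in tumor cells.

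The GTPase genes of the TRMs differed within the KLG4 pair. All 8 were higher in KLG4 replicate 1 than in KLG4 replicate 2, 6 of them by at least 2-fold on the log2(RPKM + 0.1) scale, with a median difference of 1.12 on the log2 scale against 0.01 over all genes, of which 2.87% were that much higher. Gbp2 was at 125 and 42.6 RPKM in KLG4 against 59.8 and 79.96 in KL, and Gbp3 at 126 and 62.7 against 103 and 108. Iigp1 was at 8.57 and 2.64 against 9.93 and 12.6 RPKM, a log2 fold change of -1.21 (SE 0.53, adjusted p = 0.2). Both KL libraries lay between the KLG4 libraries in Irgm1, Igtp, Gbp2, Gbp3 and Gbp7, and the groups overlapped in 7 of the 8 genes, Iigp1 being the exception. Over the 39 members, 35 were higher in KLG4 replicate 1, where 50.5% of all genes were.

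For the other TRM members of the named classes, Irf1 was at 38.7 and 25.4 RPKM in KLG4 against 36.02 and 26.8 in KL, Ifit2 at 4.16 and 2.95 against 2.44 and 4.90 and Oasl2 at 2.27 and 1.44 against 1.08 and 1.89. The groups overlapped in these genes. Herc6 was at 5.71 and 4.32 against 3.23 and 3.37 RPKM (0.58), Isg20 at 1.08 and 1.55 against 0.753 and 1.18, Bst2 at 24.03 and 18.9 against 19.7 and 19.9 and Trim30a at 14.7 and 12.9 against 8.20 and 13.1. Herc6 alone among these 4 was higher in both KLG4 libraries, and none was called. Slfn5 was at 6.31 and 4.85 against 4.49 and 7.06 RPKM and Oas1a at 11.2 and 7.67 against 3.98 and 12.3, and Rsad2 (2.23 and 0.884 against 1.20 and 1.16) and Gbp5 (16.5 and 7.29 against 16.8 and 11.8) overlapped like them. Xaf1 was lower in both KLG4 libraries, at 3.88 and 2.10 against 4.10 and 4.34 RPKM (-0.54).

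In MDMs 0 genes of the 10475 tested were called by limma (0%), and limma-voom on recovered reads called 0 as well. An unadjusted p under 0.05 was reached by 3 of the 42 members tested and by 6.74% of all genes. The pattern lay between the KL libraries. Of the 42 members, 38 had their highest value in KL replicate 1, as did 15.9% of all genes. The lowest value was in KL replicate 2 for 30, as for 37.1% of genes. Those 30 were also the ones highest in KL replicate 1 and lowest in KL replicate 2, as were 9.83% of genes, and 26 followed the exact order of KL replicate 1, KLG4 replicate 1, KLG4 replicate 2 and KL replicate 2, as did 4.95%. On the log2(RPKM + 0.1) scale KL replicate 1 was at least 2-fold above KL replicate 2 in 33 members and in 8.28% of genes, and the median difference was 1.72 against -0.08 on the log2 scale. These members share the libraries and are not independent of each other.

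The GTPases spread furthest in MDMs. Gbp2 was at 305 and 156 RPKM in KLG4 against 1053 and 67.4 in KL, the highest level of any member in the data. Gbp5 was at 38.2 and 23.7 against 199 and 8.78 RPKM and Gbp3 at 78.8 and 45.3 against 257 and 66.4. In Gbp2 and Gbp5 the KLG4 libraries lay between the KL libraries, and in Gbp3 KL replicate 2 fell between the KLG4 libraries. The class had a median KL replicate difference of 2.84 on the log2 scale. Isg15 was at 68.6 and 46.96 against 203 and 45.8 RPKM, Irf1 at 72.6 and 54.4 against 209 and 49.4 and Herc6 at 21.2 and 16.7 against 66.9 and 4.68. These too were highest in KL replicate 1 and lowest in KL replicate 2, with log2 fold changes of -0.76 (SE 0.75), -0.69 (SE 0.72) and 0.08 (SE 1.27).

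Across the other families in MDMs, Oasl1 was at 29.8 and 20.7 RPKM in KLG4 against 60.5 and 11.5 in KL, Oasl2 at 29.2 and 29.7 against 48.9 and 14.9 and Rsad2 at 40.8 and 28.2 against 80.7 and 7.79. Ifit3 was at 45.5 and 26.2 against 98.7 and 33.96, Ifit2 at 16.4 and 9.002 against 46.6 and 5.77 and Ifit1 at 8.22 and 5.34 against 17.3 and 3.56. KL replicate 1 was the highest library in all 6. Stat2 was at 24.7 and 25.2 against 49.7 and 10.5 RPKM, Zbp1 at 11.3 and 8.39 against 38.4 and 7.26 and Eif2ak2 at 22.5 and 22.1 against 36.5 and 21.8. Usp18 was at 5.90 and 5.44 against 12.2 and 2.90, Isg20 at 39.5 and 30.9 against 61.7 and 28.1 and Parp14 at 49.8 and 45.6 against 113 and 14.96. The range within KL was widest in Gbp5, Gbp2, Herc6 and Rsad2 and narrower in Eif2ak2, Isg20 and Trim30a, the last at 71.2 and 61.7 against 95.8 and 43.8 RPKM. The neutrophil marker sum (23306, 19723, 17776 and 10648 RPKM) followed the library order that the 26 members shared, and S100a9 made up most of it. S100a8, S100a9 and Retnlg had that order, whereas Csf3r, Cxcr2 and Mmp9 of the same list did not. Oasl2, Stat2 and Ifit3 did not have it either, and the part of neutrophil signal in the levels of the members was not tested.

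The other 16 members did not have that order. Among them, Iigp1 was at 1.91 and 1.18 RPKM in KLG4 against 12.03 and 16.1 in KL, for a log2 fold change of -3.13 (SE 0.33, adjusted p = 0.679). Ifi27l2a was at 4.14 and 2.57 against 8.96 and 16.7 RPKM (-1.87, SE 0.42) and Bst2 at 9.81 and 8.21 against 20.8 and 21.98 (-1.24, SE 0.21). These 3, along with Mx1 at 1.10 and 0.696 against 1.005 and 3.89, were highest in KL replicate 2. Slfn5 was at 17.1 and 13.3 against 33.5 and 20.8 RPKM (-0.81), Oas1a at 8.95 and 7.48 against 16.03 and 11.1 (-0.70) and Dhx58 at 2.11 and 2.83 against 3.95 and 3.56 (-0.60). Together Iigp1, Ifi27l2a, Bst2, Slfn5, Oas1a and Dhx58 were the 6 members whose KLG4 libraries lay below both KL libraries, where 19.1% of all genes did, and no member lay above, where 25.4% did. Groups overlapped in Xaf1 (5.98 and 3.49 against 18.7 and 4.71 RPKM), as they did in Ifi35 (16.6 and 14.97 against 22.6 and 10.6), which had the shared order.

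Which KL library was kept decided the sign in MDMs. The median log2 fold change of the members was -0.32 with all libraries, 0.54 without KL replicate 1 and -1.26 without KL replicate 2, with 32 and 0 members positive. Without KL replicate 1 the test called 2682 genes, 11 members higher and 4 lower among them, where 11.4% of all genes were higher and 14.2% lower, with the lone KL library assumed to vary like the KLG4 pair. The 4 lower were Mx1, Bst2, Iigp1 and Ifi27l2a, the 4 members that were highest in KL replicate 2. KL replicate 2 is the library with the highest macrophage marker sum and the different Xist level described above, and within this pair these properties cannot be told apart from each other.

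**Figure D5:**
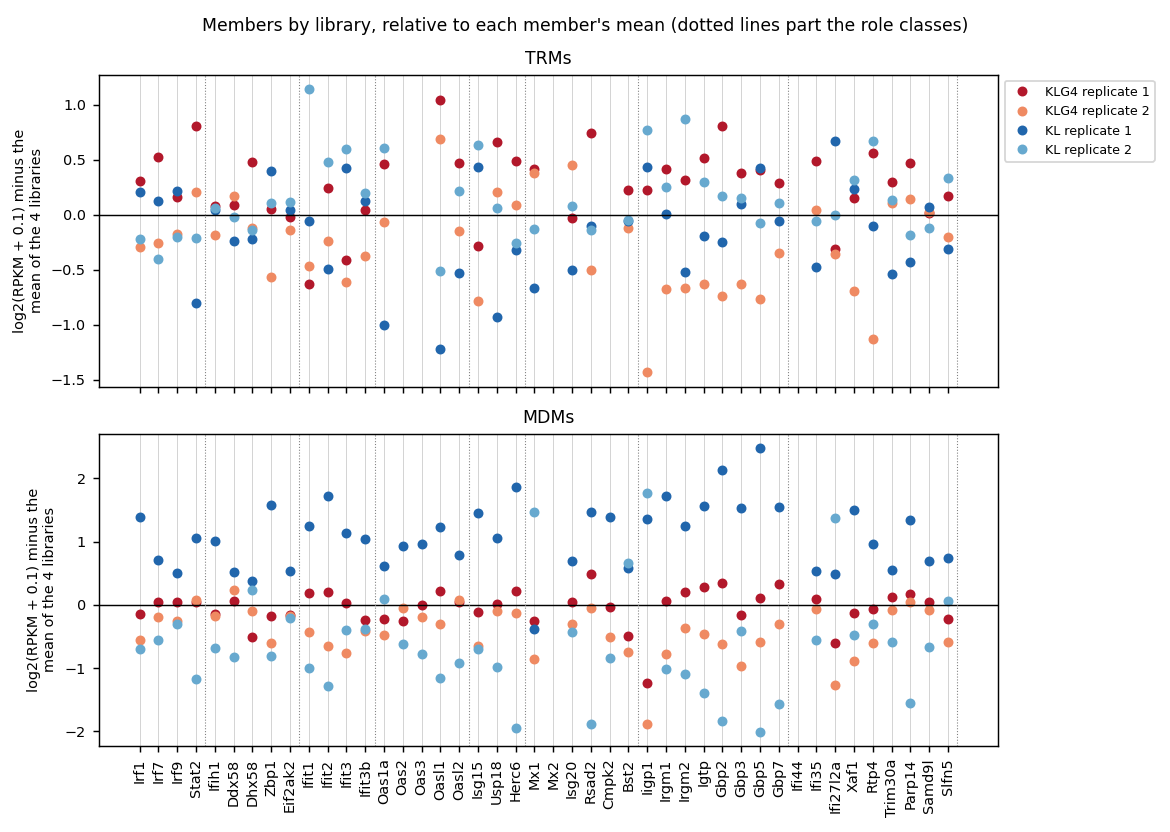
Each member's log2(RPKM + 0.1) in a library minus its mean over the 4 libraries, in TRMs (top) and MDMs (bottom), with dotted lines between role classes. In MDMs the KL replicate 1 points (dark blue) are the highest in 38 of 42 members and the KL replicate 2 points (light blue) the lowest in 30, and in TRMs KLG4 replicate 1 (red) lies above KLG4 replicate 2 (orange) in 35 of 39.

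By level, the MDM mean was the highest for most members. Over the 43 members with values in all 3 tables, the mean RPKM of 4 libraries was highest in MDMs for 38, in TRMs for Bst2, Iigp1 and Ifi27l2a, and in tumor cells for Mx1 and Mx2. In 18 of the 38 each MDM library was above each tumor cell and TRM library, among them Irf1, Irf7, Isg15, Rsad2, the IFIT genes, Trim30a and Slfn5. For Gbp2, Gbp3, Gbp5 and Gbp7 the MDM and TRM ranges overlapped, so their order between these populations was not settled by the spread of the libraries. The Gbp means in tumor cells were 16.4, 12.1, 1.32 and 1.28 RPKM, against 76.7, 99.9, 13.1 and 15.1 in TRMs and 396, 112, 67.5 and 57.8 in MDMs. Isg20 was low in TRMs, at a mean of 1.14 RPKM against 29.1 in tumor cells and 40.0 in MDMs. The tumor cell mean was the lowest for 24 members and the TRM mean for 18. These are descriptions of levels across tables that were scaled separately, with no test. The share of all genes with such patterns was not computed, so the counts do not single out the members. The MDM libraries were also those with the high neutrophil signal described above.

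The pathway above the members was read from a list of 62 further genes. The 21 interferon genes of that list had no entry used here, so ligands were not analysed. In tumor cells 20 of the 33 pathway genes tested were higher and 3 lower, beside the 20.6% and 19.6% of all genes given above. The filter bears on the count of 20, since 3 of them (Socs1, Nlrc5 and Psmb9) reached 1 RPKM in KLG4 libraries only and could be tested only through the group where they were high, and 6 more genes in the table were under it. Jak2, the kinase of the interferon gamma receptor, was at 87.9 and 88.4 RPKM in KLG4 against 22.9 and 24.04 in KL (1.90, SE 0.11, adjusted p = 0.000329, limma). Jak1, shared by all interferon receptors, was at 29.7 and 30.6 against 15.4 and 17.4 (0.88, adjusted p = 0.00456). Tyk2, the kinase of the type I receptor, was at 2.79 and 3.09 against 2.49 and 3.02 and was not called (0.09, SE 0.19). Jak1 and Jak2 rose, while Tyk2 did not pass the test.

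Of the receptor genes in tumor cells, Ifngr1 was at 41.7 and 46.2 against 16.7 and 17.3 RPKM (1.36, adjusted p = 0.000962), Ifnar2 at 20.8 and 20.1 against 10.5 and 9.54 (1.02, adjusted p = 0.0029) and Ifnar1 at 6.91 and 7.37 against 2.88 and 4.37 (0.99, adjusted p = 0.0229). Ifngr2 was at 11.6 and 11.4 against 10.996 and 11.1 and was not called (0.06). Ifnlr1, the epithelial receptor chain for type III interferon, had a log2 fold change of -0.83 (adjusted p = 0.0474), from 1.85 and 1.82 RPKM in KL to 0.813 and 1.19 in KLG4. Il10rb, the other chain of that receptor and also a chain of the interleukin-10 receptor, was at 13.5 and 13.9 against 10.5 and 9.79 RPKM and was called higher (0.43, adjusted p = 0.0474). Of the 6 receptor genes 4 were thus called higher and 1, Ifnlr1, lower. Over all genes 20.6% were called higher and 19.6% lower (40.3% in all), and the counts of the small classes below stand beside these shares. Genes that follow interferon gamma were called higher in 7 of the 8 tested, while Cxcl9 and Ciita were under the filter. Of the 7, Nlrc5 and Psmb9 could be tested only through the KLG4 libraries, where they were high. Among the 7 were Cd274, which encodes PD-L1, at 48.8 and 50.9 against 2.87 and 6.35 RPKM (3.51), the chemokine gene Cxcl10 at 7.93 and 6.69 against 1.14 and 1.53 (2.38) and the class I transactivator Nlrc5 at 2.64 and 2.61 against 0.334 and 0.487 (2.43). Of the 6 negative regulators tested, 4 were called higher (Socs1, Socs3, Ptpn1 and Ptpn6) and 1 lower (Ptpn2, -0.49, adjusted p = 0.0487). Socs1, which could be tested only through the KLG4 libraries, was at 1.35 and 2.01 against 0.358 and 0.271 RPKM (2.08, adjusted p = 0.00434, limma). Of the 9 genes tested that act in the induction of interferon, 44.4% were called, near the 40.3% of all genes. Called higher were 3, Myd88 (0.81), Irf5 (0.74) and Irf8 (1.05), and 1 was lower. That was Irf3, which switches on interferon genes, at 5.98 and 5.58 against 10.8 and 9.74 (-0.82, adjusted p = 0.00929).

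In TRMs 2 of 35 pathway genes were called, beside 1.8% of all genes, both of them higher: Jak2 at 32.5 and 46.9 RPKM in KLG4 against 14.5 and 14.7 in KL (1.41, SE 0.23, adjusted p = 0.0485), and Cd274 at 182 and 144 against 60.97 and 70.5 (1.30, adjusted p = 0.0446). Jak1 was at 27.3 and 24.2 against 18.5 and 20.9 and Tyk2 at 5.73 and 5.72 against 3.21 and 3.22. The values of these kinases were higher in both KLG4 libraries, as were those of 53.7% of all genes in TRMs, where the median of all genes was 0.38. The receptor genes stood at 5.03 and 4.40 against 2.60 and 2.40 RPKM for Ifnar1, 23.1 and 18.1 against 12.8 and 20.6 for Ifnar2, 52.5 and 63.04 against 31.3 and 31.1 for Ifngr1 and 11.4 and 12.7 against 7.43 and 9.97 for Ifngr2. Ifngr1 was the nearest of these to a call (0.88, adjusted p = 0.0594).

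In MDMs none of the 33 pathway genes tested was called. Jak2 was at 242 and 300.1 against 208 and 116 RPKM, Jak1 at 66.8 and 65.7 against 59.96 and 43.6 and Tyk2 at 3.20 and 3.52 against 3.66 and 2.96. Most receptor genes were more even, with Ifnar1 at 18.7 and 20.6 against 17.2 and 14.4 RPKM, Ifnar2 at 55.4 and 54.4 against 60.3 and 42.3, Ifngr1 at 47.2 and 48.9 against 33.1 and 48.5 and Ifngr2 at 16.3 and 19.2 against 16.7 and 20.4. None of these receptor genes differed by 2-fold between any of the 4 libraries. Ifnlr1 did, at 1.86 and 3.48 in KLG4 against 3.62 and 1.80 RPKM in KL. Cxcl10 (8.59 and 6.65 against 42.5 and 5.31) and Nlrc5 (16.7 and 11.1 against 36.9 and 3.05) showed the same KL split as the GTPases.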

How the data were processed

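Poly(A) RNA from sorted tumor cells, TRMs and MDMs of KL and KLG4 lungs was sequenced as 12 libraries, and 5 further samples in the series were not used here. Per the submitters' processing notes, reads were handled with Trim Galore 0.6.4, HISAT2 2.0.5 and featureCounts 2.0.0, from a library kit that does not keep strand, so overlapping and antisense genes cannot be told apart. The authors deposited RPKM values in a separate table for each population, with no scaling between tables. Their tables also held their own fold changes, p-values and related statistics, which were not used, and their methods name DESeq2. Whole reads were recovered from RPKM, gene length and a step per library for 100% of low values within 0.05 of a whole number, which gave the depths. Both mates of most read pairs had been counted.

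Each table was tested alone with limma 3.58.1 (R 4.3.3, two-sided, mean-variance trend, no covariate) on log2(RPKM + 0.1), a scale that understates changes of low genes, wherever 2 or more libraries reached 1 RPKM. The Benjamini-Hochberg adjustment ran over the whole table. Promoters and near copies were read with Python 3.11.15, numpy 2.4.6, pandas 2.3.3 and BLAST 2.17.0, and gene positions come from the GRCm38 annotation. The tests were tested on simulated data. Alternatives covered the pseudocount, the filter, scaling, the trend, a replicate block, limma-voom on recovered reads and each library left out. The members, the pathway and marker lists and the named genes were chosen with earlier results of these data known. Values in every library are given for the 5 largest increases and decreases without overlap in each population, the 2 members of each role with the highest mean, members without overlap in opposite directions in 2 populations, receptor and kinase genes of the pathway, and Gpx4 and Xist. Some items that the rule covers are not reported here. Other genes with such values were chosen after their values were seen. Groups and replicates follow the titles given to the samples.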

Additional observations from a re-analysis of the deposited data

Results flagged for a closer look

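Listed here are members whose KLG4 libraries were both higher than the KL pair in some population and both lower in another. No test was run on these differences between populations. Between tumor cells and TRMs, the log2 fold change was higher in tumor cells by 3.20 for Isg15, by 1.33 for Ifit3, by 1.82 for Ifit1, by 1.77 for Zbp1, by 1.96 for Iigp1 and by 4.66 for Ifi27l2a. For Ifi35 the difference of tumor cells minus TRMs was -0.92. Between tumor cells and MDMs, the value was higher in tumor cells by 1.54 for Bst2, by 3.88 for Iigp1, by 5.86 for Ifi27l2a and by 3.23 for Slfn5. Dhx58 was higher in TRMs than in MDMs by 0.96, a difference that rests on a TRM value whose sign turned under other scalings. Iigp1 and Ifi27l2a were listed for both TRMs and MDMs, and each was higher in KLG4 tumor cells and lower in KLG4 TRMs and MDMs. The TRM values include the median of 0.38 over all genes there.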

How the results depend on the processing

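In tumor cells the 5543 genes called became 3284 under a filter on a mean of at least 5 RPKM, and 1927 to 7372 without one library. Members called higher numbered 16, 8 under that filter and 10 to 21 without one library. Members called lower numbered 1, then 3 after quantile scaling and 0 under trimmed mean scaling, rescaling to reads outside mitochondrial genes, no mean-variance trend and voom on recovered reads, and 0 to 3 without one library. The members' median moved from 0.64 to 0.41 with a pseudocount of 1, 0.93 under the filter, 0.28 after quantile scaling and 0.40 to 0.72 without one library.

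In TRMs the 198 genes called became 490 and 122 with pseudocounts of 1 and 0.01, 557 under the filter, 120 without a filter, 60, 30 and 31 under quantile, trimmed mean and mitochondrial scaling, 12 without the trend, 763 by voom and 113 to 2382 without one library. Members called lower numbered 0, then 1 with a pseudocount of 1, 2 under the filter, 2 by voom and 0 to 2 without one library, and members called higher numbered 0 to 3 without one library. The median of 0.01 became -0.40, -0.38 and -0.38 under the scalings, -0.34 by voom and -0.23 to 0.27 without one library. Dhx58 turned to -0.050, -0.017 and -0.016 under quantile, trimmed mean and mitochondrial scaling. In MDMs 0 to 2682 genes were called without one library, with 0 to 11 members higher and 0 to 4 lower and a median of -1.26 to 0.54. The cause of these shifts was not tested.

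The replicate numbers did not pair the samples, since deviations of same-numbered libraries correlated at 0.02 in tumor cells, -0.06 in TRMs and 0.05 in MDMs. With the replicate block 5388, 470 and 0 genes were called. For the members with the largest changes without overlap, or with such changes in opposite directions, 460 of 463 values under alternatives kept their direction. Over all members tested, the sign turned in 27 of 548 such values in tumor cells (10 of 41 members), 66 of 529 in TRMs (22 of 39) and 47 of 584 in MDMs (32 of 42). None of the 17 members called in tumor cells, and 0 of their values, turned. With 2 libraries per group, the test on simulated data recovered 71% of changes of 1 on the log2 scale in tumor cells. In TRMs it recovered 35% and in MDMs 5%, and for changes of 2 the shares were 98%, 93% and 79%. The lack of member calls in TRMs and MDMs thus does not show a lack of change.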
